A study of Mus musculus with 2 samples.

Results

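The miR-130 and miR-301 family was followed through microRNA sequencing of mouse forebrain at embryonic day 12.5. Its genes were chosen by name, as the rows whose Ensembl gene maps to Mir130a, Mir130b, Mir301b or Mir301 (the gene of miR-301a, in Ska2). All 4 had a row, out of 1973 miRNA genes counted. The series held 1 group of 2 biological replicates, both from healthy B6NCrl embryos with no treatment, and each a pool of dissected forebrains of both sexes. Replicate 1 was made from 120 embryos and replicate 2 from 68, and RNA under 30 nt was sequenced. Each pool gave 1 library, and both biosamples refer to 1 donor record, so a difference between the pools cannot be told apart from one of dissection, library preparation or sequencing. No tissue, age or genotype was contrasted. The comparisons are therefore between the members, between the pools, and with related miRNA genes.

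A microRNA (miRNA) is a short RNA cut from a hairpin precursor and loaded into an Argonaute protein. It lowers the output of messenger RNAs that pair with its seed, bases 2 to 8 counted from its 5′ end. The miRNAs of this family are read from the 3′ arm of their hairpins, share 1 seed and so can address overlapping sets of targets. Among them, miR-130a is known from endothelial cells, where it lowers the antiangiogenic homeobox factors Gax and Hoxa5, and from fat cell precursors, where it lowers Pparg. At this stage the forebrain wall consists largely of dividing neural progenitors, with the first neurons and ingrowing vessels.

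The mature sequences are printed to show what the members have in common and where they part. They come from RefSeq on GRCm38.p6, the build called mm10 in the deposited files, where all 4 hairpins matched by symbol and were identical to those of GENCODE M21. The sequences run 5′ to 3′, with the seed in capitals.
miR-130a-3p: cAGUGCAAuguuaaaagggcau
miR-130b-3p: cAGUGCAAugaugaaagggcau
miR-301a-3p: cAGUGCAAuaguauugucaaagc
No 3p form of Mir301b was among the RefSeq sequences used, so none is printed. The first 9 bases were the same in all 3 forms printed, and miR-130a-3p and miR-130b-3p shared the first 10. Counted from 1 at the 5′ end of miR-130a-3p, miR-130b-3p differed from it at 2 of 22 positions, U11A and A13G. Without gaps, miR-301a-3p matched miR-130a-3p at 12 positions and miR-130b-3p at 11. The 3 forms printed thus fall into a miR-130 and a miR-301 kind by the bases after the seed. Mir301b is counted with the miR-301 kind by its name, since its 3p form was not compared. A messenger site for the common seed reads UUGCACU.

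The arms on the other side of the hairpins are shown because the gene counts hold both arms together.
miR-130a-5p: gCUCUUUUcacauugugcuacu
miR-130b-5p: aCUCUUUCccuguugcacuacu
miR-301a-5p: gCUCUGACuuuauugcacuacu
miR-301b-5p: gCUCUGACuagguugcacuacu
The 5p forms of miR-301a and miR-301b had 1 seed and differed at 3 neighbouring positions, U10A, U11G and A12G, counted on miR-301a-5p. Those of miR-130a and miR-130b differed at 7 positions, of which U8C, counted on miR-130a-5p, lies in the seed. Across the kinds, miR-130b-5p and miR-301b-5p differed at 6 positions. How the reads of a gene divide between its arms cannot be read from the deposited counts.

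The whole hairpins were also compared. Global alignment gave 70.7% identity for Mir301 and Mir301b, the highest of the 6 pairs, and 46.6% for Mir130a and Mir301b, the lowest. Mir130b and Mir301b, which lie side by side, were 59.6% identical. Mir130a and Mir130b were 56.6% identical, less than Mir130b and Mir301 at 60.6%, so whole hairpins did not sort fully by kind. The seed letters AGUGCAA stood once in each of the 4 hairpins, and 12 of 1005 RefSeq mouse hairpins (1.19%) held them on the hairpin strand. The longest stretch shared with a hairpin of another gene was 17 bases for Mir130a and 16 bases for each of the others, and 15 bases or fewer for the mature forms listed in RefSeq. No member therefore shared 20 bases with another annotated hairpin, and matches elsewhere in the genome were not searched. These runs count exact matches only, so they do not show how reads with mismatches were assigned between members. Predicted folding energy per 100 bases was -34.5 kcal/mol for Mir130a, -36.7 for Mir130b, -40.3 for Mir301b and -43.0 for Mir301, against a median of -40.6 over all RefSeq hairpins.

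The genes lie at 3 places. Mir130a (ENSMUSG00000065484.1) is at chromosome 2, from 84741115 to 84741178 of mm10 on the minus strand, and overlaps no other annotated gene. Its nearest neighbours are Gm19426, 990 bases away on the same strand, and Ypel4, 2459 bases away on the other strand. Mir130b (ENSMUSG00000065572.1) is at chromosome 16, from 17124061 to 17124142 on the minus strand, and Mir301b (ENSMUSG00000076288.1) stands 257 bases upstream of it, from 17124400 to 17124496. Both lie in introns of the protein-coding gene 2610318N02Rik, in the 3 of its 8 annotated transcripts that span them, with Sdf2l1 next to it. Mir301 (ENSMUSG00000065589.1) is at chromosome 11, from 87113004 to 87113089 on the plus strand, in an intron of the 2 of 3 Ska2 transcripts that span it. Ska2 codes for a protein of the complex that holds kinetochores on spindle microtubules. Its neighbours Prr11 and Gm11491 lie on the opposite strand, 4295 and 8477 bases from Mir301.

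Depth was alike in the libraries. Of 11104730 and 11154304 reads, 4333194 and 4397107 fell on miRNA genes in the gene's own direction, and levels are counts per 1000000 of these (CPM), with mean ± SD over the replicates. A gene without reads could have reached 0.692 CPM in replicate 1 and 0.682 CPM in replicate 2, taking 3 counts as the floor. Such floors and the 95% intervals below (exact Clopper-Pearson) cover counting error only. Of the neural markers, Mir92b, a miRNA of cortical progenitors, stood at 19620 ± 283.3 CPM, and Mir137, a neuronal miRNA, at 5207 ± 112.5 CPM. Lower were Mir9-3, at 713.5 ± 0.551 CPM, and Mir9-2, at 5.61 ± 0.428 CPM. The 3 Mir124a genes, which yield 1 mature sequence, stood between 1.36 and 7.05 CPM. Reads matching several places were not assigned to genes, so the levels of multi-copy genes, those of miR-9 and miR-124 among them, are uncertain.

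Every member was read in both pools, at levels spread over a 99.4-fold range on average. Mir130a had 151355 reads in replicate 1 and 158614 in replicate 2, or 34929 CPM (34757 to 35102) and 36072 CPM (35898 to 36247). It was the fourth most abundant of all miRNA genes in each library, with a mean of 35501 ± 808.3 CPM (SD, n = 2). This was 3.55% ± 0.0808 of all assigned reads. Reads matching several places, 37.9% of all reads in each library, were not assigned. Genes with several identical copies may therefore rank too low beside the members. Mir130b, with 43258 and 44766 reads, stood at 9983 and 10181 CPM, 10082 ± 139.9 CPM on average, at rank 22 in each library.

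The 2 genes of the miR-301 kind were lower than the miR-130 genes. Mir301 had 20053 and 17676 reads, or 4628 CPM (4564 to 4692) in replicate 1 and 4020 CPM (3961 to 4080) in replicate 2. Its mean was 4324 ± 429.8 CPM, with rank 50 in replicate 1 and 55 in replicate 2. Mir301b had 1533 and 1585 reads, or 353.8 CPM (336.3 to 371.9) and 360.5 CPM (342.9 to 378.7), at ranks 154 and 153. It was the lowest member in both pools, with a mean of 357.1 ± 4.73 CPM.

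**Figure D1:**
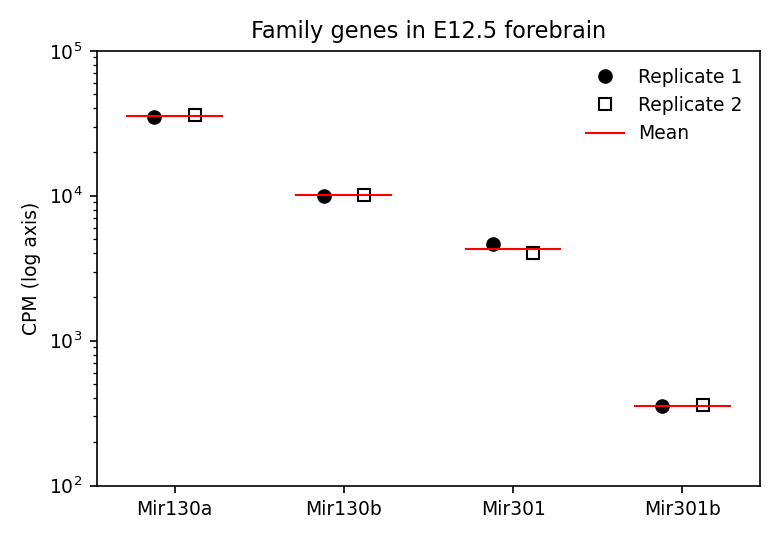
Levels of the 4 family genes in CPM on a log axis, with a filled circle for replicate 1, an open square for replicate 2 and a red line for their mean. The libraries of each gene lie close together compared with the steps between genes, from 35501 CPM for Mir130a down to 357.1 CPM for Mir301b.

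The order Mir130a, Mir130b, Mir301, Mir301b was the same in both pools, and no neighbours in it overlapped. Mir130a exceeded Mir130b 3.50-fold in replicate 1 and 3.54-fold in replicate 2, or 3.52 ± 0.0313 (SD, n = 2). Mir130b exceeded Mir301 2.16-fold and 2.53-fold, or 2.34 ± 0.265, and Mir301 exceeded Mir301b 13.1-fold and 11.2-fold, or 12.1 ± 1.36. Each step was larger than the spread of either gene over the pools. With 2 libraries these steps are given as a description, without a test. Each count holds short reads from both arms of a hairpin together. How efficiently each mature form was ligated and sequenced was not measured.

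The genes nearest to each member in level are given as landmarks, by the distance in log2(CPM + 1) over the 2 libraries. For Mir130a they were Mir99b, at 29255 and 30190 CPM, and Mir30e, at 27506 and 30817 CPM. For Mir130b they were Mir18, at 9649 and 10012 CPM, and Mir181d, at 9505 and 9868 CPM. Mir301 stood nearest to Mir324, at 4630 and 4610 CPM, and to Mir125a, at 4813 and 4774.5 CPM. Mir301b stood nearest to Mir3074-1, at 339.0 and 354.1 CPM, and to Mir503, at 370.2 and 369.1 CPM. With 2 libraries this likeness is one of level alone.

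Summed, the 4 genes held 49894 CPM in replicate 1 and 50634 CPM in replicate 2, that is 5.03% ± 0.0523 of assigned reads (SD, n = 2). Seeds were ranked by the summed CPM of all genes whose RefSeq mature miRNAs carry them, a gene counting under the seed of each of its arms. Under this count AGUGCAA stood at rank 7 of 1205 seeds in each library, with 49540 and 50273 CPM, all of it from Mir130a, Mir130b and Mir301. Above AGUGCAA were the miR-99 and miR-100 seed ACCCGUA at 178624 CPM, the miR-17 seed AAAGUGC at 127511 CPM and both seeds of miR-335. The others above it, AAGCUCG and CUGCAGU, are 3p seeds of miR-99 and miR-17 seed genes, so their reads were already counted. Next below AGUGCAA was the let-7 seed GAGGUAG at 46788 CPM. Genes with several identical copies lose reads that match more than 1 place, so ranks of such seeds are uncertain.

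Most of the family's reads came from 1 locus. Mir130a gave 70.0% of them in replicate 1 (69.8 to 70.2) and 71.2% in replicate 2 (71.1 to 71.4), or 70.6% ± 0.873 (SD, n = 2). Mir130b gave 20.01% and 20.11%, Mir301 9.28% and 7.94%, and Mir301b 0.709% and 0.712%. The chromosome 16 pair together held 20.7% and 20.8%. The miR-130 genes thus made up the larger part of the family in both pools. Between pools the shares of Mir130b and Mir301b had overlapping intervals. That of Mir301 was 9.15 to 9.40 in replicate 1 and 7.83 to 8.05 in replicate 2, and these did not overlap. The intervals of Mir130a given above did not overlap either. Shares are parts of the same sum, so they do not move independently.

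**Figure D2:**
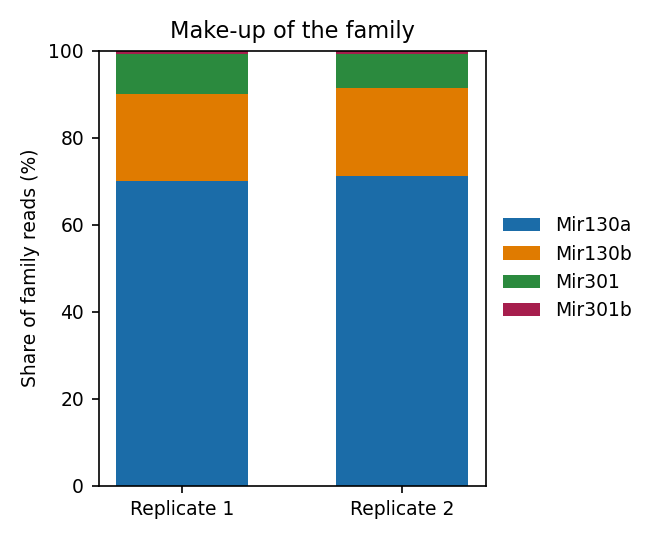
Share of the family's gene-strand reads (%) taken by each of the 4 genes in each library, stacked to 100%. Mir130a takes 70.0% and 71.2%, Mir130b about equal parts in both pools, Mir301 9.28% and 7.94%, and Mir301b the thin strip at the top.

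Mir130b and Mir301b, which lie 257 bases apart on 1 strand, differed widely in level and did so to a like extent in both pools. There were 28.2 reads of Mir130b for each read of Mir301b in replicate 1 (26.8 to 29.7) and 28.2 in replicate 2 (26.9 to 29.7). No difference in the ratio between the libraries was found (two-sided Fisher's exact test, p = 0.985), at a depth that leaves the intervals just given. Mir301b, upstream on the transcribed strand, was the lower of the pair. On the scale of log2(CPM + 1) the difference was 4.81 in replicate 1 and 4.82 in replicate 2.

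Other neighbouring miRNA genes give a frame for this pair. Of 112 consecutive pairs on 1 strand, no more than 10 kb apart and both genes with 10 reads or more, the median difference in log2(CPM + 1) was 2.69, with quartiles of 1.36 and 5.31. In 31 pairs it was larger than between Mir130b and Mir301b. Between pools the pair's difference moved by 0.0014, less than in any of the other 111 pairs, and the median move over all pairs was 0.17. This place was looked up after the values were seen, and the counting intervals of the ratio are wide enough to hold larger moves.

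**Figure D3:**
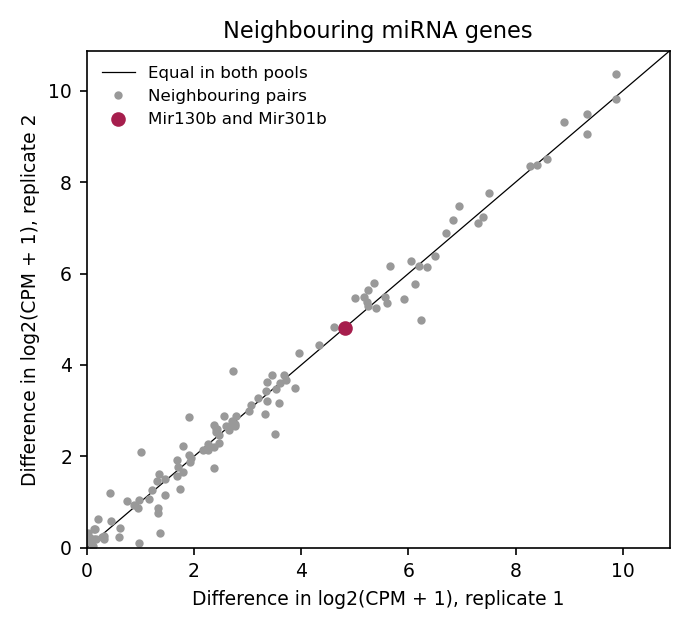
Absolute difference in log2(CPM + 1) between the genes of each of 112 neighbouring pairs, in replicate 1 on the x axis and replicate 2 on the y axis, with a line where both pools are equal. The pair of Mir130b and Mir301b lies on the line, at 4.81 and 4.82, above the median pair.

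Between the pools, 3 of the 4 members differed by 3.27% or less in CPM. Replicate 2 was compared with replicate 1 for the 511 genes whose reads in the 2 libraries summed to 10 or more, by two-sided Fisher's exact test with Benjamini-Hochberg adjustment. This compares 2 libraries and not conditions. With the threshold set at an adjusted p of 0.05, it called 32.7% of all genes tested and 3 of the 4 members. In replicate 2, 20.2% of the genes were called higher and 12.5% lower. Of 101 genes averaging 1000 CPM or more it called 81.2%, so a call at the depth of Mir130a, Mir130b or Mir301 is common. With edgeR's TMM scaling the 170 genes called were 80 higher and 90 lower, against 103 and 64 by assigned reads. With a 2-fold difference as well, 2.74% of genes and no member were called.

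Mir301 was lower in replicate 2 by 13.1% in CPM, a log2 ratio of -0.20 (adjusted p = 1.64e-41, Fisher's exact test), and this was the largest move in the family. Under TMM and DESeq2 scaling the ratio was -0.25 and -0.23, in the same direction. Among the 101 abundant genes, 80 had a smaller absolute ratio and the median was 0.10. Mir301 therefore moved more than most genes averaging 1000 CPM or more, though less than 2-fold.

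Mir130a was 3.27% higher in replicate 2 (log2 ratio 0.046, adjusted p = 6.12e-19, Fisher's exact test), but with TMM scaling the ratio was 0.0033 and the call was lost (adjusted p = 0.697, within 3.78e-19 to 0.697 over the alternatives). Mir130b was 1.98% higher (log2 ratio 0.028, adjusted p = 0.0122, Fisher's exact test), and with TMM scaling its ratio turned to -0.015 (adjusted p = 0.266). With DESeq2 size factors it was 0.0053 (adjusted p = 0.745), and over the alternatives its adjusted p by Fisher's exact test ran from 0.00775 to 0.745. Mir301b did not pass, with 1.89% more CPM in replicate 2 (log2 ratio 0.027, adjusted p = 0.753, Fisher's exact test), which turned to -0.016 with TMM. The median ratio of all genes tested was 0.041, and Mir130a, Mir130b and Mir301b lay near it. Over genes averaging 1000 CPM or more the median was -0.0062, and Mir130a and Mir130b lay slightly above that. The median ratio over the 4 members was 0.028.

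**Figure D4:**
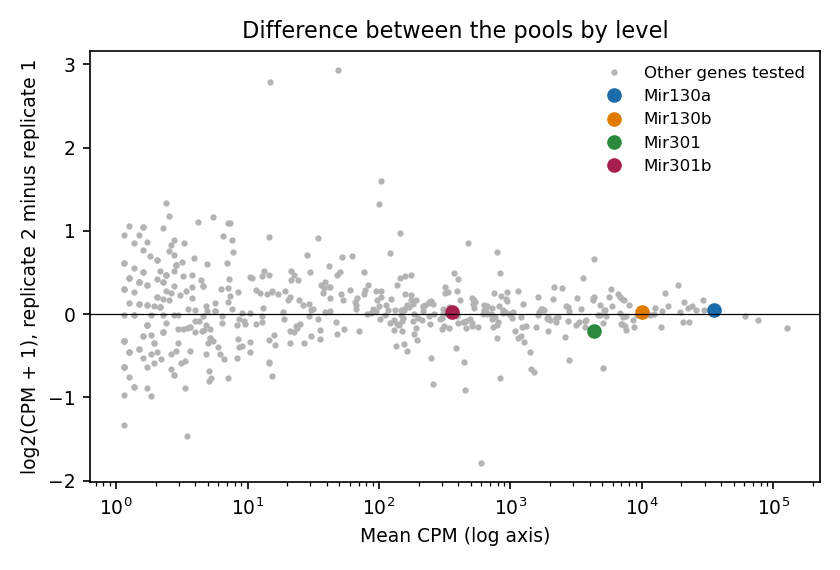
Difference between the pools, as log2(CPM + 1) of replicate 2 minus that of replicate 1, against mean CPM on a log axis for the 511 genes tested. Mir130a, Mir130b and Mir301b lie close to 0 and Mir301 lies at -0.20, within the range of other genes of like abundance.

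A further 4 mouse genes have a mature miRNA in RefSeq with the same seed. Of these, 3 had a row, and all 3 were without reads. Mir130c (chromosome 9, from 53400805 to 53400886, overlapping an exon of Kdelc2 on the other strand), Mir6341 and Mir6389 had 0 reads in both libraries, which allows up to 0.692 and 0.682 CPM. The fourth, Mir721, in an intron of Cux1, was not analysed here. Their mature sequences are shown because they keep the seed and part from miR-130a-3p only further on.
miR-130c: cAGUGCAAuguuccaaggugug
miR-6341: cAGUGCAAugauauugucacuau
miR-6389: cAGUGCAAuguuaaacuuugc
miR-721: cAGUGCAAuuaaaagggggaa
The first 12 bases of miR-130c and the first 15 of miR-6389 were those of miR-130a-3p, against 10 for miR-6341 and 9 for miR-721. The mature forms of Mir6341, Mir6389 and Mir721 lie nearer the 5′ end of their hairpins. Those of Mir130a, Mir130b, Mir301 and Mir130c that carry the seed lie nearer the 3′ end. The family's reads with a counted gene thus came from the 4 genes named in the rule.

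The 2 families with partly overlapping seeds listed for comparison were read beside it. The miR-148 and miR-152 family, known for lowering the DNA methyltransferase Dnmt1, holds the run CAGUGCA 1 base further from the 5′ end. The miR-17 seed genes, which promote division of progenitor cells, share AGUGC with the family's seed and are held in 3 paralogous clusters.
miR-148a-3p: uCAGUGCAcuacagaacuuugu
miR-152-3p: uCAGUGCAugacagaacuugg
miR-17-5p: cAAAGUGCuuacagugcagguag
The 3 miR-148 and miR-152 genes summed to 642.3 and 661.6 CPM, far below the 4 family genes and above Mir301b alone. Mir148a stood at 308.1 ± 9.12 CPM, Mir148b at 293.0 ± 8.22 CPM and Mir152 at 50.8 ± 12.8 CPM (SD, n = 2). The 6 miR-17 seed genes summed to 127117 and 127905 CPM. Mir17 alone, at 60649 ± 594.7 CPM, stood above the whole miR-130 and miR-301 family, and Mir20b, at 1628 ± 160.0 CPM, above Mir301b. Between pools, 1 of 3 miR-148 and miR-152 genes was called (higher in replicate 2), and 4 of 6 miR-17 seed genes were called higher and 2 lower, beside 2 higher and 1 lower of the 4 family members. Over all genes tested 32.7% were called, and 81.2% of those averaging 1000 CPM or more, where all 6 miR-17 seed genes lie, so these counts are near what the table gives at large. The median log2 ratios were 0.060, 0.088 and 0.028, and no difference between the families was tested.

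Markers of other cells that a forebrain dissection can hold were read beside the members, against 20.2% of all genes tested called higher and 12.5% called lower. Mir126a, the endothelial miRNA in Egfl7, had 16564 CPM in replicate 1 and 21180 in replicate 2, a log2 ratio of 0.35. The 7 mural and mesenchymal genes, such as Mir143 and Mir214, summed to 13294 and 16134 CPM, with a median log2 ratio of 0.47 and 6 of 7 called higher. The 7 epithelial genes summed to 13628 and 10008 CPM, with 5 called lower and 2 higher. The 4 blood genes with a row summed to 461.1 and 437.1 CPM, with 2 called higher and 1 lower. Muscle genes summed to 3.23 and 26.6 CPM. Mir206 held most of this, with 13 reads in replicate 1 and 117 in replicate 2. Mir206 was called higher, also with the 2-fold minimum (log2 ratio 2.79, adjusted p = 5.12e-21, Fisher's exact test). Mir133a-1 and Mir133a-2 had 0 reads, but reads matching several places were not assigned to genes, so their level is uncertain. The liver gene Mir122 stood at 10.4 and 7.73 CPM. Mir130a, the member known from endothelium, moved by 0.046 where Mir126a moved by 0.35. Mir301 and the epithelial sum were lower in replicate 2, and the part of these cells in the levels of the members was not tested. In bulk tissue, fewer cells of a type and less RNA per cell cannot be told apart. The 7 neural genes with a row had a median log2 ratio of 0.044, with 2 called higher and none lower, near the share over all genes tested.

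**Figure D5:**
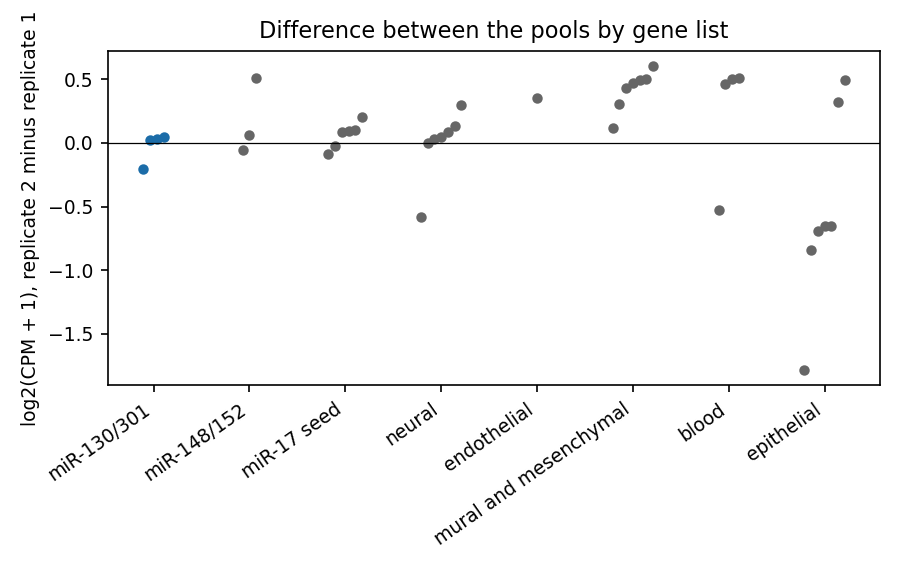
Difference between the pools, as log2(CPM + 1) of replicate 2 minus that of replicate 1, for each gene with at least 10 reads in the lists named on the x axis, the miR-130 and miR-301 family in blue. The family's 4 genes lie between -0.20 and 0.046, while the epithelial genes reach down to -1.79 and most mural and mesenchymal genes lie above 0.30.

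Almost no reads lay on the strand opposite to the members. Mir130a had 2 such reads in replicate 1 and 1 in replicate 2, and Mir130b, Mir301 and Mir301b had 0 in both. Counting both strands therefore left the reads of Mir130b, Mir301 and Mir301b as they were.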

How the data were processed

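Small RNA libraries from 2 pools of E12.5 forebrain were analysed from raw read counts per gene, not normalised, as deposited. The authors counted alignments to mm10 with GENCODE annotation M4, per the deposited notes. Which aligner and counter they used is not given in the sources used here. Columns for both strands, the gene strand and the opposite strand were told apart from the values, and 97.3% and 97.2% of assigned reads lay on the gene strand. The 4 rows naming no gene were left out; reads matching several places were 37.9% of all reads in each library, unmapped reads 17.5% and 16.8%, and reads in no feature 5.49% and 5.93%. Symbols and positions came from GENCODE M21 by Ensembl ID (1894 of 1973 matched), sequences from RefSeq.

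CPM refer to gene-strand reads; ratios between libraries are differences of log2(CPM + 1). The single group leaves edgeR's quasi-likelihood test without a contrast, so the libraries were compared gene by gene with Fisher's exact test in SciPy 1.17.1. It was tried on simulated counts without variation between pools and scored with the 2-fold minimum. That trial does not check calls of smaller differences. Alternatives used edgeR 4.0.16 and DESeq2 1.42.0 in R 4.3.3. Hairpins were folded with RNAfold 2.7.2. Members, lists and tests were chosen with earlier results of these data known. Genes named were the family, all genes with its seed, the listed families and markers, the 2 genes nearest in level to each member, and genes within 10 kb. The symbols Mir9-1, Mir126b, Mir142, Mir1a-2 and Mir122a were not analysed here. Shares within the family are given with intervals, without p-values.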

Additional observations from a re-analysis of the deposited data

Results flagged for a closer look

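Reads that matched several places numbered 4213961 in replicate 1 and 4224434 in replicate 2. They stand outside the gene counts and were picked out because, with no control samples, any such total exceeds what a count of 0 allows. No member shared 20 bases with another annotated hairpin, and how many of these reads came from the family was not measured.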

How the results depend on the processing

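The summed level of the family, 50264 CPM, was 48891 CPM with both strands in the count and the total, 25559 CPM with reads matching several places added to the total, and 57528 CPM with the most abundant gene left out of it. These follow from the denominators. It was 49894 CPM without replicate 2 and 50634 CPM without replicate 1, and stayed within 1 SD under TMM and DESeq2 scaling. Counting both strands moved the shares of the members and the ratio of Mir130b to Mir301b by less than 1 SD. With 2 replicates, leaving out either moves a mean by a fixed part of the SD, which says nothing of stability. TMM scaling turned the log2 ratios of Mir130b to -0.015 and of Mir301b to -0.016 and ended the call of Mir130a, and DESeq2 scaling ended that of Mir130b. With a 2-fold minimum, 14 of 511 genes were called, and 5 of 316 when a gene needed 100 reads to be tested. With a 1.5-fold minimum 32 of 511 were called. Counts of genes called by adjusted p ranged from 162 to 178. Crediting opposite-strand reads to a family gene without a row was not run, since no counted gene overlaps Mir721. Leaving out a replicate gives no comparison between the libraries. No paired analysis was possible because the series has 1 group. Depth limits Mir301b most, with 1533 and 1585 reads.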
